A study of Mus musculus with 7 samples.

Results

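The brush border peptidases are enzymes on the luminal surface of absorptive enterocytes that cut peptides from the diet. The 8 genes described here were chosen by name: Anpep, Dpp4, Enpep, Mme, Mep1a, Mep1b, Ace and Xpnpep2, out of 38293 genes in the count table. All 8 were among the 14869 genes with enough counts to be tested. Their transcripts were measured by RNA sequencing of ileal scrapings from 7 male C57BL/6NRJ mice that were housed individually. The age of the mice is given as 8 weeks, and their age at sampling is not stated. Every mouse ate the control diet for an acclimatization of 1 week and then its assigned diet for 2 weeks. The 4 normal cystine (normal cys) mice, libraries X17SI4, X32SI4, SI9 and X1SI4, stayed on a purified AIN93-G diet low in calcium with 40% of its energy from fat. The 3 low cystine (low cys) mice, libraries X23SI4, X26SI4 and X10SI4, received the same diet with alanine in place of the added L-cystine, so that the total cystine content was 0.08% instead of 0.38%. Both groups therefore ate the same high fat, low calcium base, and the comparison shows the difference in cystine and alanine on that base. The mice were fasted for 4 h, and the scraping of the last of 4 equal lengths of the small intestine holds the epithelium and the lamina propria without the muscle layer.

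Dietary protein reaches the small intestine mostly as oligopeptides made by gastric and pancreatic proteases. Brush border peptidases shorten these to free amino acids, dipeptides and tripeptides, which enterocytes take up through the amino acid transporters and the peptide transporter Slc15a1. Aminopeptidases remove residues from the N-terminus, dipeptidyl peptidases release dipeptides, and endopeptidases cut inside the chain. Most of these enzymes are single-pass membrane proteins with the active site facing the lumen, and several also inactivate peptide hormones.

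Of the 8 genes, 6 held the codons of the zinc-binding motif His-Glu-X-X-His in frame in their longest coding sequence, in which X is any residue and the histidines hold the catalytic zinc. This motif occurred in 705 of 22101 coding genes, or 3.19%, of the GENCODE M21 annotation of the mouse genome build GRCm38. It was found in Anpep, Enpep, Mme, Mep1a and Mep1b once and in Ace at 2 places, since Ace has a catalytic domain in each of its 2 similar parts. Dpp4, a serine peptidase, and Xpnpep2, which binds zinc through other residues, did not hold it. The coding sequences around the motif are shown 5′ to 3′ on the coding strand, with the 15 bases of the motif in capitals, because they mark the active site that the metallopeptidases share. That of Mep1b is not shown.
Anpep: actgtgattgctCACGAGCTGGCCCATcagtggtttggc
Enpep: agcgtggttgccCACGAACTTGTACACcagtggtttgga
Mme: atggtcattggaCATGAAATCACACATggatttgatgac
Mep1a: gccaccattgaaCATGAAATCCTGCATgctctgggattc
Ace, first site: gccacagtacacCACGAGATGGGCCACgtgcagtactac
Ace, second site: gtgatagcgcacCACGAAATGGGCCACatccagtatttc
The Anpep sequence shown, with its flanks, lies across the junction of exons 5 and 6 (chr7:79838993-79839192, minus strand, intron included). So does the Enpep sequence shown (chr3:129309127-129309798, minus strand). Whether the junction falls inside the 15 bases of the motif was not determined. The Mme site is in exon 18 (chr3:63362009-63362047, plus strand) and the Mep1a site in exon 7 (chr17:43491647-43491685, minus strand). The Ace sites are in exon 8 (chr11:105972898-105972936) and exon 20 (chr11:105985082-105985120) on the plus strand.

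The peptidase transcripts were abundant in every library. Together they held 1.65% to 2.15% of all counts, with 2.03% ± 0.110 (SD, n = 4) on normal cys and 1.85% ± 0.202 (SD, n = 3) on low cys. Per length, as RPKM (counts scaled by library size and exon length), the highest was Anpep with a median of 2823 over the 7 libraries (range 2050 to 3219), and its range did not reach that of any other peptidase. Mep1b followed with a median of 806 RPKM (582 to 896), then Enpep with 547 (471 to 650) and Mep1a with 418 (399 to 692). Xpnpep2 had a median of 200 RPKM (134 to 236), Dpp4 of 174 (139 to 218), Ace of 120 (60.8 to 217) and Mme of 38.3 (12.3 to 61.0). Within this order the ranges of neighbours overlapped apart from the steps from Anpep to Mep1b and from Mep1a to Xpnpep2. Ace and Mme met only at their ends, at 60.8 and 61.0 RPKM.

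The total count per library was 19712355 to 22412703 on normal cys and 14888760 to 21942518 on low cys. The lowest count of any peptidase in any library was 1276, for Mme, so that counting error was small beside the difference between mice. The scrapings expressed the ileal genes Fabp6 and Slc10a2 in both groups, Fabp6 at 5392 ± 1452 CPM (counts scaled to a common library size by TMM; SD, n = 4) and 4030 ± 1323 CPM (SD, n = 3). Genes typical of more proximal intestine were also present and varied widely, with a summed level of Gata4, Lct, Cybrd1, Fabp1 and Apoa4 of 2069 to 8083 CPM on normal cys and 809 to 5700 CPM on low cys. The lowest sum was in X23SI4. Within the sum, Apoa4 averaged 4230 CPM on normal cys and 2461 CPM on low cys, and Cybrd1 0.35 and 0.44 CPM. RNA was purified with either of 2 kits, and the sources used here do not give the kit of each library. In a scraping, fewer enterocytes and less RNA per enterocyte cannot be told apart.

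None of the 8 peptidases passed the test between diets, and all 8 had a lower estimate on low cys. The median log2 fold change (low minus normal cys) of the 8 was -0.32, against 0.007 over all genes tested, and 48.8% of all genes tested had a negative estimate. With edgeR's quasi-likelihood test, 0 peptidases had an unadjusted p under 0.05, against 5.49% of all genes in either direction and 2.83% in the lower one. After Benjamini-Hochberg adjustment no gene of the whole table passed (0.0%), with 817 genes at an unadjusted p under 0.05 and 16 genes passing in DESeq2, none of them a peptidase. The CPM values of the diets did not overlap for 2 of the 8 peptidases, Dpp4 and Mep1a. Of all genes, 3.51% had libraries of low cys wholly below those of normal cys. The separation of Mep1a, by 0.72 CPM, depended on the TMM scaling. As a share of total counts, Mep1a was lower in X17SI4 on normal cys (27612 of 19712355) than in X26SI4 on low cys (23074 of 15708368).

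**Figure D1:**
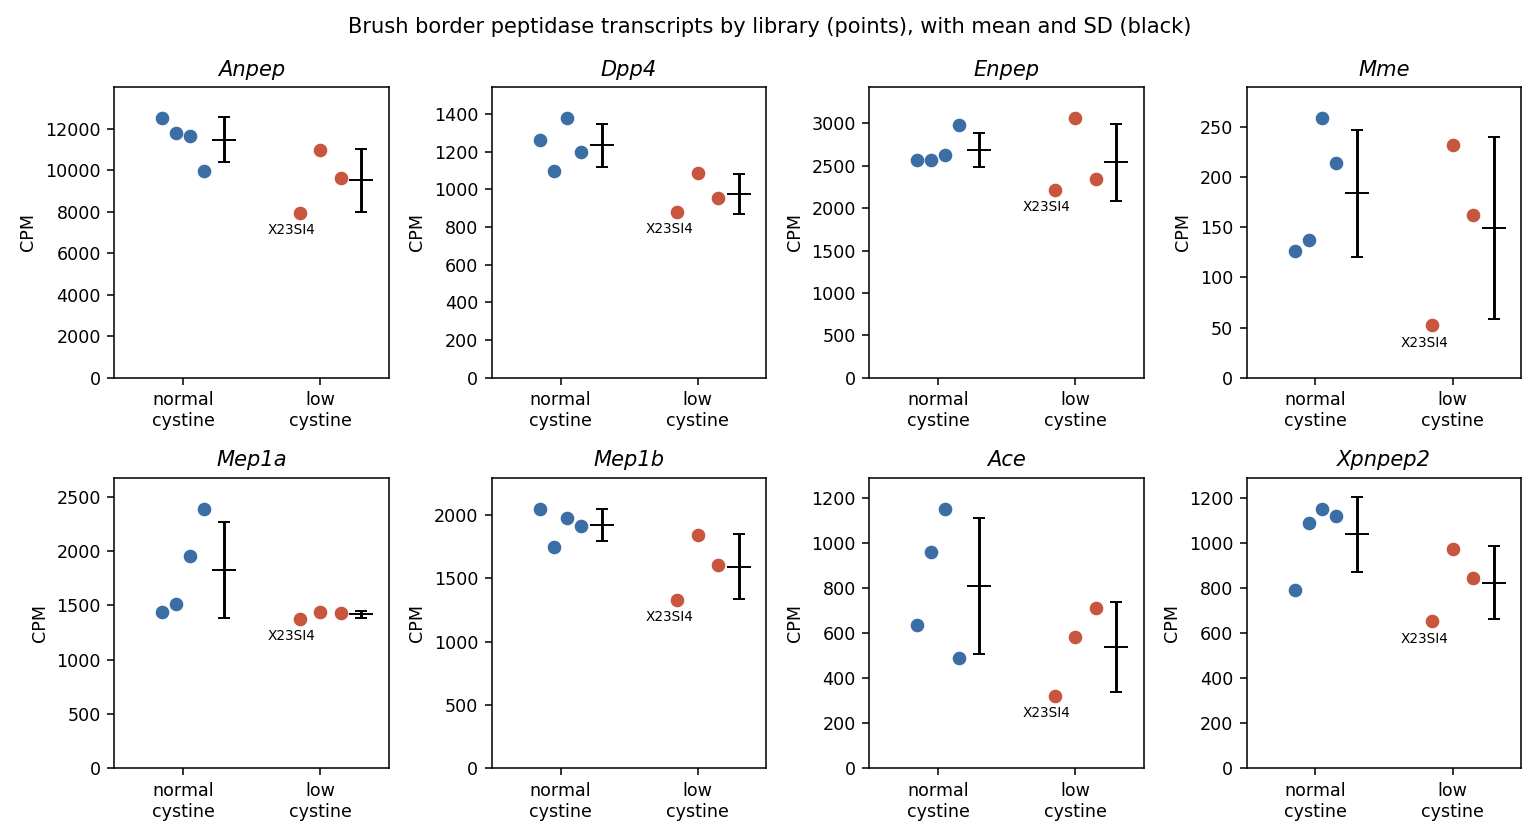
Each panel plots the CPM of 1 peptidase gene in 4 normal cys libraries (blue) and 3 low cys libraries (red), with the mean and SD in black and an axis from 0. X23SI4 is the lowest point in all 8 panels, and the groups are apart for Dpp4 and, by under 1 CPM, for Mep1a.

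Among the aminopeptidases, Anpep (aminopeptidase N, chr7:79821803-79848210, minus strand) releases mainly neutral residues. It had 12487, 11774, 11650 and 9968 CPM in the normal cys libraries X17SI4, X32SI4, SI9 and X1SI4, and 7951, 10950 and 9605 CPM in the low cys libraries X23SI4, X26SI4 and X10SI4. X26SI4 was above the lowest normal cys library, so the groups overlapped. The mean was 11470 ± 1067 CPM (SD, n = 4) on normal cys and 9502 ± 1502 CPM (SD, n = 3) on low cys. The log2 fold change was -0.27 (SE 0.192, edgeR adjusted p = 0.798), and the two-sided exact permutation test over the 7 libraries gave p = 0.0857. The smallest p that this test can give with 4 and 3 libraries is 0.0286. The estimate was -0.15 without X23SI4 and -0.14 with total count scaling.

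Enpep (aminopeptidase A, chr3:129269175-129332720, minus strand) removes acidic residues and also cuts angiotensin II. It had 2568, 2572, 2629 and 2979 CPM on normal cys and 2217, 3060 and 2348 CPM on low cys. The highest of the 7 values, X26SI4, and the lowest, X23SI4, were both on low cys. The estimate was the one nearest to 0 of the 8 peptidases, with a log2 fold change of -0.08 (SE 0.173, edgeR adjusted p = 0.905; exact permutation p = 0.6). Its sign depended on the scaling and on 1 library: the log2 fold change was 0.060 when libraries were scaled by total count alone and 0.018 without X23SI4.

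Xpnpep2 (membrane aminopeptidase P, chrX:48108725-48136981, plus strand) removes an N-terminal residue that precedes proline. It had 793, 1091, 1152 and 1122 CPM on normal cys, where X17SI4 was low, and 652, 973 and 846 CPM on low cys. X26SI4 and X10SI4 were above X17SI4 and below the other 3 normal cys libraries. The log2 fold change was -0.34 (SE 0.197, edgeR adjusted p = 0.794; exact permutation p = 0.171). It was -0.18 without X23SI4 and -0.20 with total count scaling. Without X17SI4 it was -0.44 with an unadjusted p of 0.0421, in a fit where 11.9% of all genes had an unadjusted p under 0.05.

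Dpp4 (dipeptidyl peptidase 4, chr2:62330073-62412231, minus strand) releases dipeptides that end in proline or alanine and inactivates the incretin hormones. It had 1260, 1101, 1378 and 1197 CPM on normal cys and 880, 1088 and 956 CPM on low cys. Every low cys library was below every normal cys library, with 1088 CPM in X26SI4 next to 1101 CPM in X32SI4. The mean was 1234 ± 116 CPM (SD, n = 4) against 974 ± 105 CPM (SD, n = 3), a log2 fold change of -0.34 (SE 0.153), and edgeR's unadjusted p was 0.0528 and its adjusted p 0.794. The exact permutation test gave p = 0.0571. Of the peptidases it had the smallest unadjusted p, which was 0.0181 in DESeq2 and 0.0423 in limma-voom, where 3.62% and 2.79% of all genes were called in the lower direction, and it did not pass after adjustment in either (0.698 and 0.719). With total count scaling the log2 fold change was -0.20.

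Ace (angiotensin-converting enzyme, chr11:105967945-105989964, plus strand) removes dipeptides from the C-terminus of peptides. It had 636, 957, 1149 and 488 CPM on normal cys and 322, 583 and 711 CPM on low cys. The groups overlapped, and the highest library held 3.57 times the CPM of the lowest. Ace had the most negative estimate of the 8 peptidases and also a wide error, with a log2 fold change of -0.58 (SE 0.348, edgeR adjusted p = 0.794; exact permutation p = 0.257). The estimate was -0.31 without X23SI4, -0.37 without SI9 and -0.76 without X1SI4, the latter with an unadjusted p of 0.0443 where 5.65% of all genes had one under 0.05.

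Among the endopeptidases, Mep1a and Mep1b encode the alpha and beta subunits of meprin, which form dimers and larger complexes. Mep1a (chr17:43474324-43502812, minus strand) had 1443, 1510, 1957 and 2388 CPM on normal cys and 1378, 1442 and 1434 CPM on low cys. The normal cys libraries were spread over 945 CPM and the low cys libraries over 64.0 CPM. The groups were apart by 0.72 CPM with TMM scaling, and overlapped when scaled by total counts. The log2 fold change was -0.36 (SE 0.203, edgeR adjusted p = 0.794; exact permutation p = 0.171), and it was -0.21 both without X1SI4 and with total count scaling. Mep1b had 2048, 1751, 1977 and 1912 CPM on normal cys and 1331, 1842 and 1607 CPM on low cys, with X26SI4 inside the range of the normal cys libraries. Its log2 fold change was -0.27 (SE 0.166, edgeR adjusted p = 0.794; exact permutation p = 0.0857), and it was -0.15 without X23SI4 and -0.13 with total count scaling. The ratio of Mep1a to Mep1b CPM ran from 0.704 in X17SI4 to 1.25 in X1SI4 on normal cys and from 0.783 to 1.04 on low cys, so the balance of the 2 subunit transcripts differed more between mice of 1 diet than between the diets.

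Mme (neprilysin, chr3:63295872-63382231, plus strand) cuts peptides at the amino side of hydrophobic residues. It had 126, 137, 258 and 214 CPM on normal cys and 52.1, 232 and 163 CPM on low cys, a range of 4.96 times and the widest of the 8 peptidases. X23SI4 stood below all the others. The log2 fold change was -0.31 (SE 0.465, edgeR adjusted p = 0.865; exact permutation p = 0.6), and it was 0.11 without X23SI4, -0.10 without SI9, -0.76 without X26SI4 and -0.17 with total count scaling.

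**Figure D2:**
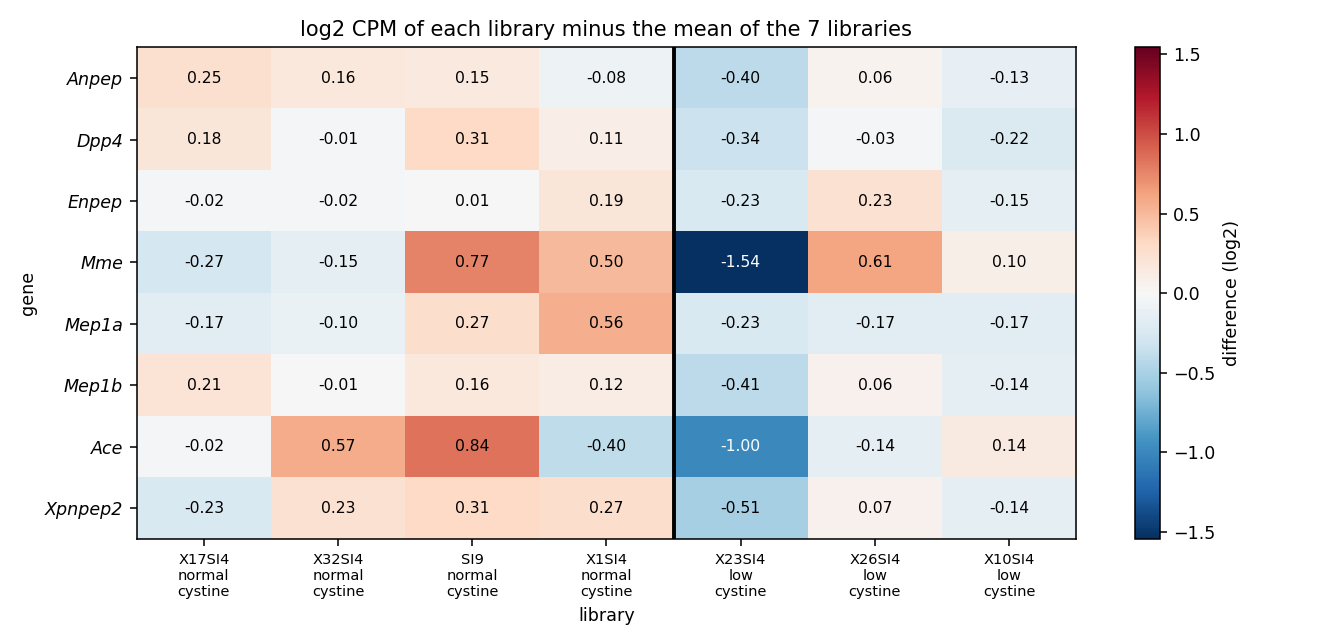
Each cell gives the log2 CPM of a peptidase (rows) in a library (columns) minus the gene's mean over the 7 libraries, with red above and blue below that mean. The X23SI4 column is below the mean for all 8 genes, from -0.23 for Enpep and Mep1a to -1.54 for Mme.

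The low cys library X23SI4 had the lowest CPM of the 7 libraries for all 8 peptidases, whereas it was the lowest for 18.8% of all genes tested. For Enpep and Mep1a this rank depended on the TMM scaling. As a share of total counts, Enpep was lower in X10SI4 (36432 of 14888760) than in X23SI4 (54333 of 21942518). By that share Mep1a was lower in X17SI4 (27612 of 19712355), X26SI4 and X10SI4 than in X23SI4 (33766 of 21942518). On average over the peptidases the log2 CPM of X23SI4 was 0.58 below the mean of the 7 libraries. The normal cys libraries ran from -0.0079 (X17SI4) to 0.35 (SI9), and of the other low cys libraries X26SI4 was within that range at 0.085 and X10SI4 below it at -0.088. Without X23SI4, 6 of 8 peptidases had a negative estimate, their median log2 fold change was -0.17, and 0 had an unadjusted p under 0.05, against 1.71% of all genes in that fit. Leaving out any 1 library gave between 0 and 1 peptidases with an unadjusted p under 0.05, against 1.71% to 11.9% of all genes.

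**Figure D3:**
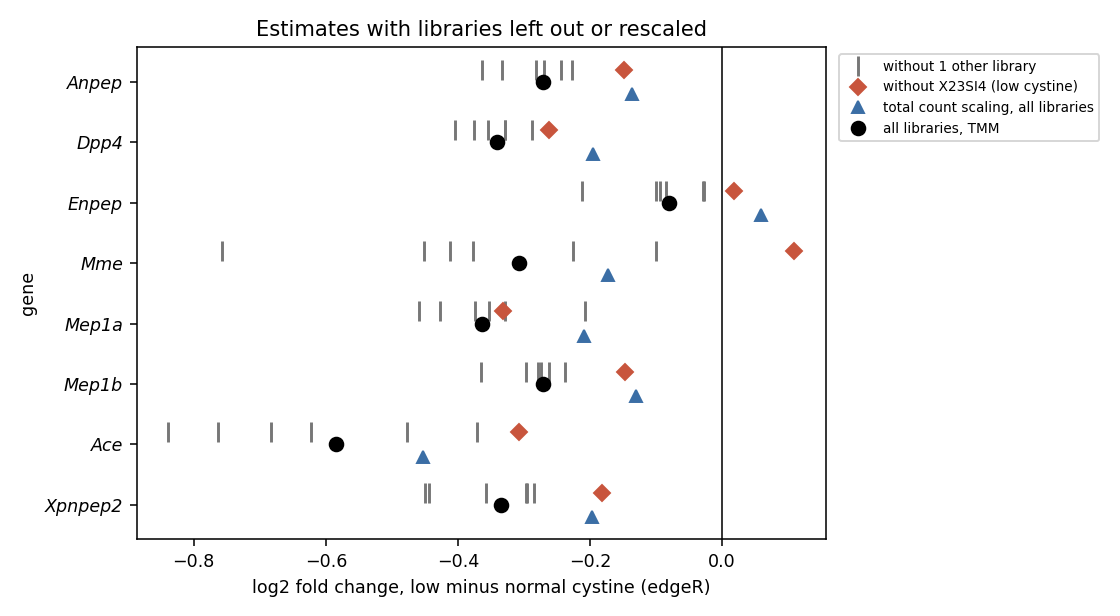
Estimates of the log2 fold change (low minus normal cys) for each peptidase are plotted with all libraries (black), without X23SI4 (red), without each other library (grey ticks) and with total count scaling (blue). Enpep and Mme cross 0 without X23SI4, and Enpep also does with total count scaling.

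The Pearson r of log2 CPM was positive for all 28 pairs, from 0.12 (Anpep and Mep1a) to 0.93 (Dpp4 and Mep1b), with a median of 0.65, where 49.8% of all pairs of tested genes had a positive r. The points share their libraries and scaling, and X23SI4 is the lowest point in every pair. Without it 21 of 28 pairs were positive over 6 libraries, from -0.52 to 0.91 with a median of 0.35. The gene most like Ace was Slc2a7, a hexose transporter of the small intestine, with r = 0.991 over 7 libraries. For Anpep it was Hgs (r = 0.994), for Dpp4 Sprr2a3 (0.983), for Enpep Ccdc148 (0.974) and for Xpnpep2 Fam118a (0.998). For Mme it was E030037K01RIK (r = 0.987), for Mep1a Dnase1l1 (0.990) and for Mep1b Arhgap17 (0.987). The mean of the standardized peptidases was most like H2-T3 (r = 0.988), Gm8909 (0.986) and Ccnyl1 (0.985). Each gene named for 1 peptidase has the highest r with it among all other genes tested, and the 3 named for the mean have the highest 3. These are descriptions only, picked from 14869 genes over 7 libraries, and no relation between the genes was tested. E030037K01RIK and Ccdc148 had low levels, with means of 0.75 and 1.11 CPM on normal cys and 0.66 and 0.82 CPM on low cys. Of the 50-base stretches of the Xpnpep2 transcripts, 1.03% also occurred in other genes, and Fam118a is among these. The part of this sharing in the r of Xpnpep2 and Fam118a was not tested.

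The other genes of the enterocyte surface had estimates of similar size. The brush border structure genes, which build and anchor the microvilli, all had a negative estimate (14 of 14, median log2 fold change -0.35), and 3 had an unadjusted p under 0.05 in the lower direction, against 2.83% of all genes. These were Ezr, the linker ezrin (log2 fold change -0.40, SE 0.155, unadjusted p of 0.0289), Cdhr2, a protocadherin between microvilli (-0.43, SE 0.177, unadjusted p of 0.0395), and Espn, the actin bundler espin (-0.37, SE 0.160, unadjusted p of 0.0475), all with an edgeR adjusted p of 0.794. Vil1, which encodes the actin-binding villin, was at 3672 ± 108 CPM (SD, n = 4) and 2832 ± 614 CPM (SD, n = 3; -0.37, SE 0.186, edgeR adjusted p = 0.794). X23SI4 was the lowest library for 12 of the 14. Without it 14 of 14 still had a negative estimate, the median was -0.23 and 0 had an unadjusted p under 0.05. Without X1SI4, 13 of 14 had a negative estimate.

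**Figure D4:**
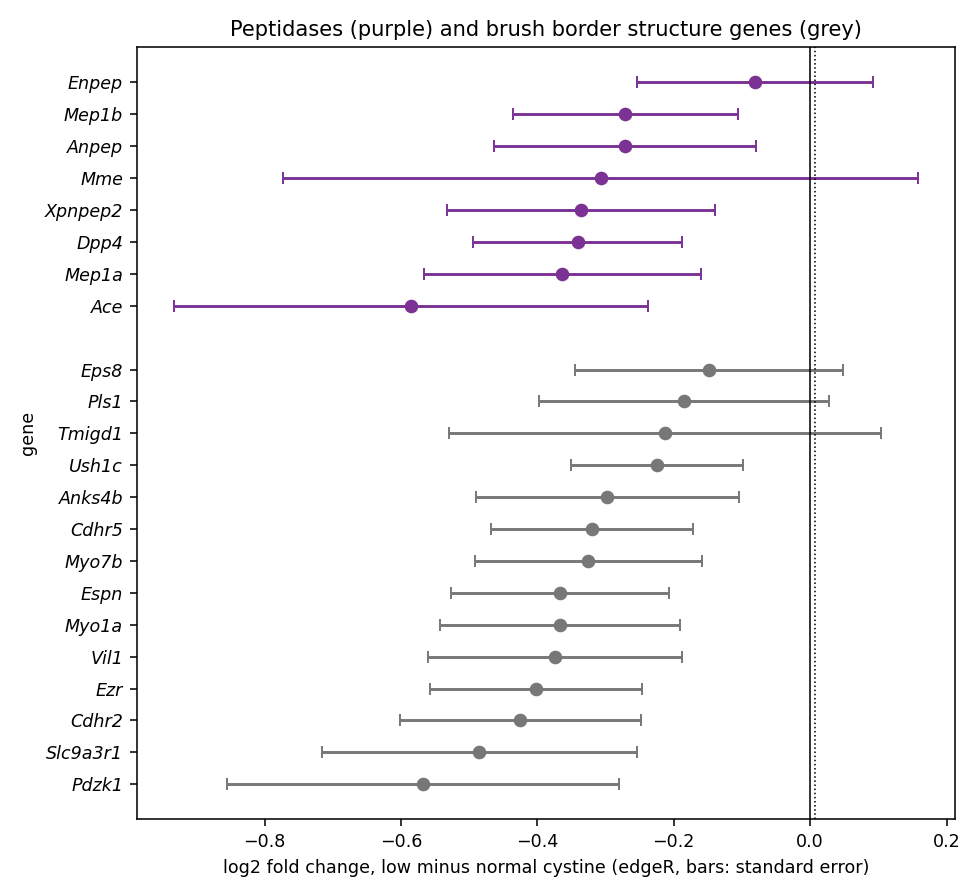
The edgeR log2 fold change (low minus normal cys) is plotted with its SE for the 8 peptidases (purple) and the 14 brush border structure genes (grey), with a solid line at 0 and a dotted line at 0.007, the median of all genes. All 22 points are left of 0 and the ranges of the peptidases and structure genes overlap.

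Relative to the mean log2 CPM of the 14 structure genes, most peptidases differed little between the diets. The difference (low minus normal cys, log2 scale) was 0.056 for Anpep (two-sided exact permutation p = 0.886), -0.0062 for Dpp4 (p = 0.943), 0.0020 for Mep1a (p = 1), 0.054 for Mep1b (p = 0.6) and -0.0040 for Xpnpep2 (p = 1). Ace differed by -0.25 (exact permutation p = 0.6) and Mme by -0.15 (p = 0.8), both with a wide spread between mice. The Ace value was -0.039 without X23SI4 and -0.53 without X1SI4, and the Mme value was 0.35 without X23SI4. These p-values do not show that the ratios are equal, since the SD over the normal cys libraries ran from 0.066 (Enpep) to 0.65 (Ace) on the log2 scale.

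Of these ratios only that of Enpep did not overlap between the diets. Its log2 ratio to the structure genes was 1.54, 1.52, 1.42 and 1.41 on normal cys and 1.78, 1.76 and 1.60 on low cys. All 3 low cys libraries were above all 4 normal cys libraries, with a difference of 0.24 and an exact permutation p of 0.0286, the smallest it can give. It was 1 of 8 ratios compared, and the p is not adjusted for them. The structure genes had lower estimates on low cys, and the same ratio had a median difference of 0.36 over all genes tested, 66.9% of genes had a larger difference than Enpep, and 7.65% had an exact permutation p under 0.05 in the higher direction. The difference stayed between 0.21 and 0.30 when any 1 library was left out, and against Vil1 alone it was 0.31 with an exact permutation p of 0.0857.

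**Figure D5:**
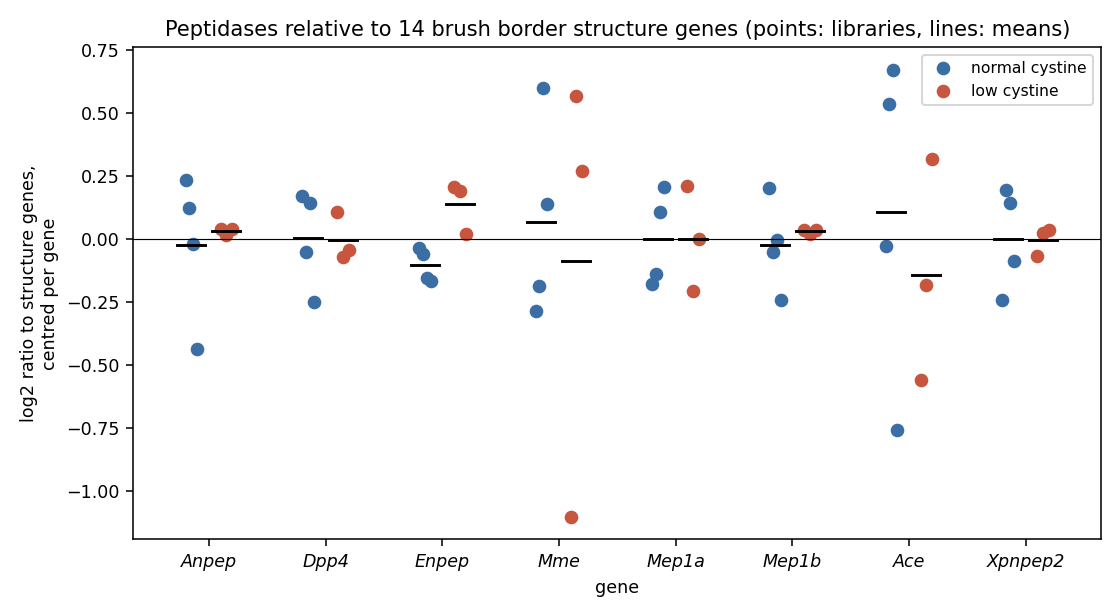
For each peptidase, the log2 ratio to the 14 structure genes is plotted per library, centred on the gene's mean, for normal cys (blue) and low cys (red), with group means as lines. The groups are apart for Enpep, with the low cys libraries above, and overlap for the other 7 genes.

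Other peptidases of the same membrane had negative estimates as well. All 5 of the 7 listed genes that were tested had a negative estimate (median log2 fold change -0.37). An unadjusted p under 0.05 was found for 1 of the 5, against 2.83% of all genes in the lower direction. This was Ggt1, the gamma-glutamyltransferase that opens glutathione breakdown at the cell surface. It had 657, 758, 887 and 943 CPM on normal cys and 460, 641 and 643 CPM on low cys. These did not overlap, as for 3.51% of all genes in that direction (log2 fold change -0.48, SE 0.188, unadjusted p of 0.0308, edgeR adjusted p = 0.794). The peptidase gene Naaladl1 had a log2 fold change of -0.37 (SE 0.216, edgeR adjusted p = 0.794). Folh1 had 0 counts in every library and Tmprss15, the duodenal enteropeptidase, at most 1. Without X23SI4, 5 of 5 had a negative estimate and 0 an unadjusted p under 0.05, and without X1SI4, 4 of 5 had a negative estimate.

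Inside the enterocyte, cytosolic peptidases finish the dipeptides and tripeptides. Of 11 tested, 7 had a negative estimate (median log2 fold change -0.19). An unadjusted p under 0.05 was found for 1 of the 11, against 2.83% of all genes in the lower direction. This was Dnpep, an aspartyl aminopeptidase (-0.61, SE 0.229, unadjusted p of 0.0262, edgeR adjusted p = 0.794). Cndp2, a dipeptidase that also acts on Cys-Gly, had -0.36 (SE 0.170) and Xpnpep1, the cytosolic aminopeptidase P, -0.38 (SE 0.193), both with an edgeR adjusted p of 0.794. Of the carriers that take up the products, 11 of 12 tested had a negative estimate (median -0.31). An unadjusted p under 0.05 was found for 2 of the 12, against the same 2.83% of all genes. Slc15a1, the peptide transporter, had 495, 902, 1033 and 729 CPM on normal cys and 334, 503 and 594 CPM on low cys (log2 fold change -0.73, SE 0.280, unadjusted p of 0.0287, edgeR adjusted p = 0.794). Slc6a19, the carrier of neutral amino acids, had a log2 fold change of -0.58 (SE 0.229, unadjusted p of 0.0315, edgeR adjusted p = 0.794), and Slc36a1, a proton-coupled amino acid carrier, -0.70 (SE 0.318, unadjusted p of 0.0570). Without X23SI4, 7 of 11 cytosolic peptidases and 10 of 12 carriers had a negative estimate, and 0 of either list an unadjusted p under 0.05. Their medians were then -0.063 and -0.20.

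All 4 disaccharidases, the sugar-cutting counterparts of the peptidases on the same membrane, had a negative estimate (median log2 fold change -0.44). Without SI9, 3 of 4 did and the median was -0.075, and without X23SI4 it was -0.14. The trehalase Treh had -0.67 (SE 0.290, unadjusted p of 0.0472), Mgam -0.16 (SE 0.168) and Sis, sucrase-isomaltase, -0.26 (SE 0.279), and no edgeR adjusted p was under 0.794. Of 11 transcription factors of enterocytes, 9 had a negative estimate (median -0.15). An unadjusted p under 0.05 was found for 1 of the 11, against 2.83% of all genes in the lower direction. This was Gata6 (-0.35, SE 0.130, unadjusted p of 0.0237, edgeR adjusted p = 0.794). The median was -0.082 without SI9. Klf4 had -0.47 (SE 0.223) and Cdx1 0.23 (SE 0.161). Hnf4a and Cdx2, which act on many enterocyte promoters, had estimates of -0.20 (SE 0.163) and -0.18 (SE 0.170). With total count scaling, which moves the median of all genes to 0.15, 6 of 11 of these factors and 7 of 8 peptidases had a negative estimate, and the median of the peptidases was -0.18.

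Marker genes of other cell types also differed between the libraries. The summed level of 6 fibroblast genes was 4.11 to 8.93 CPM on normal cys and 11.8 to 18.6 CPM on low cys, without overlap. Of these, 5 of 5 tested genes were positive. Dcn (log2 fold change 1.55, unadjusted p of 0.00118) and Col3a1 (1.58, unadjusted p of 0.00322) had an unadjusted p under 0.05, against 2.66% of all genes in the higher direction. The fibroblast counts were low, with at most 110 in any library for Dcn, 98 for Col3a1, 34 for Col1a1 and 5 for Lum. Only 2 of the genes had at least 10 counts in every library. Smooth muscle and pericyte genes had 14.3 to 23.2 and 24.3 to 51.9 CPM, with 7 of 7 positive but 0 of 7 without overlap between the diets. Pdgfrb alone averaged 13.1 and 15.2 CPM, and the highest sum was in X26SI4. B and plasma cell genes had 38.0 to 119 and 152 to 221 CPM, with 4 of 5 positive and 1 of 5, Jchain, without overlap. Proliferation genes had 117 to 299 and 189 to 337 CPM, with the highest value in X23SI4 and 6 of 6 positive. T cell genes had 109 to 221 and 81.4 to 127 CPM, with 5 of 5 negative, and Paneth genes 596 to 3899 and 2391 to 4196 CPM, with 5 of 5 positive. The endothelial, myeloid, goblet and enteroendocrine sums overlapped between the diets, and the pancreatic acinar genes were at or near 0. The summed structure genes were 17528 to 21494 CPM on normal cys and 17600 and 15208 CPM in X26SI4 and X10SI4, and lowest in X23SI4 with 12479 CPM. The part of these cell types in the peptidase values was not tested.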

How the data were processed

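Counts per gene for 7 ileal libraries were used as deposited. The authors prepared stranded polyA libraries, sequenced paired-end 50 base reads, trimmed them with TrimGalore, removed rRNA reads with SortMeRNA, aligned with STAR to GRCm38 and counted with featureCounts on Ensembl gene models, and deposited the raw counts. The strand setting and the treatment of multiply mapped reads are not given in the sources used here. Of 50-base stretches of the peptidase transcripts, at most 3.77% (Ace) also occurred in another gene. Genes were filtered with filterByExpr (minimum count 10), and TMM scaling and edgeR 4.0.16 (robust quasi-likelihood fit, R 4.3.3) were used over 14869 genes, with Benjamini-Hochberg adjustment. Log2 CPM used a prior count of 2, and RPKM the exon length per gene that was deposited with the counts. Single values were compared by two-sided exact permutation. DESeq2 1.42.0, limma-voom (limma 3.58.1), other scalings and filters and leaving out each library were alternatives. No library pair was a duplicate. The scripts were tested on simulated data. Peptidases, lists and tests were chosen with earlier results of these data known. Named are the peptidases, a set of related genes, the 3 genes with the smallest unadjusted p of each enterocyte list and the gene most like each peptidase (3 for their mean). Some list genes are not reported here by name. Markers and the untested Folh1 and Tmprss15 were named after their values were seen.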

Additional observations from a re-analysis of the deposited data

Results flagged for a closer look

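In 5 of 40 values examined in the 4 normal cys libraries, 1 library stood apart from the other 3, where chance gives about 1 in 20, or 2.0 of 40. For Enpep the gap of X1SI4, the highest library, to its neighbour was 0.851 of the range of the group. For Xpnpep2 the gap of X17SI4, the lowest library, was 0.833 of the range. The summed enterocyte transcription factors were low in X32SI4 (0.903 of the range), the summed T cell genes were high in X17SI4 (0.835) and the summed B and plasma cell genes were low in X1SI4 (0.863).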

How the results depend on the processing

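No paired analysis was possible because the labels give the 2 diets no shared replicate numbers. For the peptidases, 96 of 104 alternative values of the log2 fold change kept their direction and their side of the 0.05 threshold. Those that reversed were Enpep with total count scaling (0.060) and Enpep and Mme without X23SI4, whose leave-one-out ranges were -0.21 to 0.018 and -0.76 to 0.11. The difference of mean CPM likewise reversed for Enpep with total counts (108) and, leaving out 1 library, ran from -405 to 16.6 for Enpep and from -76.7 to 13.2 for Mme. The number of peptidases with an unadjusted p under 0.05 was 1 in DESeq2 and 1 in limma-voom (Dpp4 in both) and 0 to 1 leaving out 1 library, and by the exact permutation test it was 1 with total counts (Dpp4, p = 0.0286) in place of 0. Relative to the structure genes, leaving out 1 library gave -0.081 to 0.14 for Anpep, -0.090 to 0.049 for Dpp4, -0.48 to 0.35 for Mme, -0.10 to 0.11 for Mep1a, -0.019 to 0.13 for Mep1b and -0.085 to 0.060 for Xpnpep2, -0.53 to -0.039 for Ace and 0.21 to 0.30 for Enpep, and relative to Vil1 alone Dpp4 was 0.056, Xpnpep2 0.058 and 0 peptidases passed in place of 1. With DESeq2, an unadjusted p under 0.05 was reached by 2 of 5 other brush border peptidases, 2 of 11 cytosolic peptidases and 5 of 12 carriers. It was also reached by 7 of 14 structure genes and 2 of 11 transcription factors, against 6.32% of all genes. Leaving out 1 library these numbers ran from 0 to 3, 0 to 2, 0 to 3, 0 to 7 and 0 to 2. They ran from 0 to 1 for disaccharidases, 0 to 1 for distal ileum and 0 to 2 for proximal genes. In the fits without 1 library, 1.71% to 11.9% of all genes had an unadjusted p under 0.05. The causes were not tested. The correlations between peptidases without X23SI4 were added after seeing the data. Over all genes, 258 had an unadjusted p under 0.05 without X23SI4 and 1763 without X17SI4. With 4 and 3 mice the exact test cannot give a p below 0.0286, and depth was not limiting for the peptidases.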
